A study of Mus musculus with 6 samples.

Results

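The subject is a pair of endothelial miRNA hairpins, miR-126a and miR-139, each with a 5p and a 3p arm. The 4 mature names were mmu-miR-126a-3p, mmu-miR-126a-5p, mmu-miR-139-5p and mmu-miR-139-3p (mmu, for mouse, is left out from here on). These 4 were taken by name from the 1900 mature names listed in the counts of the renal cortex of C57BL/6 mice, of which 1026 had a count in any library. They were compared between 3 mice given tofogliflozin in a HF/HC/HS/BA diet for 8 weeks and 3 mice given the HF/HC/HS/BA diet alone for 8 weeks. This diet, rich in fat and cholesterol and with added bile salt, induces steatohepatitis, and tofogliflozin inhibits the glucose transporter SGLT2 of the proximal tubule. Both groups ate the diet, so the comparison is of the drug on that diet, and no group on ordinary chow was analysed here. The tissue was whole cortex, in which fewer endothelial cells, less miRNA per endothelial cell and a change in miRNA from other cells cannot be told apart.

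A miRNA is cut from a hairpin transcript, and one of its arms is loaded into an Argonaute protein and guides it to mRNAs that pair with the seed, bases 2 to 8 of the miRNA. miR-126 is a classic endothelial miRNA, also found in blood progenitors and platelets. Its 3p arm represses Spred1 and Pik3r2, inhibitors of signalling downstream of VEGF, a growth factor that maintains renal capillaries. Its 5p arm represses Dlk1, an inhibitor of Notch signalling that restrains endothelial proliferation. miR-139 is enriched in endothelial cells, and its 5p arm has been described to repress ROCK2 and CXCR4 in human tumour cells.

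The mature sequences are shown with the seed in capitals, because the seed decides which mRNAs an arm can pair with. They are from the RefSeq table of build GRCm38.p6, read 5′ to 3′. That table has no mature entry for miR-126a-5p, so its sequence is not shown and its seed was not searched.
miR-126a-3p, chr2:26591402-26591423, plus strand: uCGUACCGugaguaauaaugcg
miR-139-5p, chr7:101475382-101475403, plus strand: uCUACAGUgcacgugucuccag
miR-139-3p, chr7:101475418-101475439, plus strand: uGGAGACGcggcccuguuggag
No other mature name among the 1679 of that table had any of these 3 seeds, so none of them belongs to a seed family there. The 3 miRNAs are all 22 bases long, with a GC content of 45.5% for miR-126a-3p, 54.5% for miR-139-5p and 68.2% for miR-139-3p.

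The hairpins are shown with the mature arms of that table in capitals, because the results compare the reads of the arms within each hairpin.
Mir126a, chr2:26591357-26591429, plus strand: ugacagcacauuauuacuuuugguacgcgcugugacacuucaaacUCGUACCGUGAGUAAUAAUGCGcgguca
Mir139, chr7:101475376-101475443, plus strand: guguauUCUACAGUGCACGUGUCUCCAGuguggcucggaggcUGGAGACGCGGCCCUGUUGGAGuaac
Both hairpins lie on the same strand as a protein-coding host gene. In GENCODE M21 (GRCm38, the build called mm10), Mir126a lies inside Egfl7, which encodes a secreted factor of endothelial cells. It is intronic in 8 of the 9 Egfl7 transcripts that span it and meets an exon in 1. Mir139 lies inside Pde2a, which encodes a cGMP-stimulated phosphodiesterase, and is intronic in all 10 Pde2a transcripts that span it. Each hairpin is also inside an intron of 1 transcript of a longer gene model, Gm20532 for Mir126a and Gm45837 for Mir139.

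An annotated hairpin on the opposite strand, Mir126b, overlaps Mir126a, and the miR-126b-5p sequence pairs exactly with miR-126a-3p over 19 bases.
miR-126b-5p, chr2:26591399-26591420, minus strand: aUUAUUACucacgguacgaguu
It is shown because reads of that sequence would mark transcription of the antisense strand. miR-126b-5p had 0 counts in all 6 libraries, which allows up to 0.131 to 0.452 CPM (counts scaled to a common library size) in a library, taking 3 counts as the limit and covering counting error only. miR-126b-3p had 1 count, in tofogliflozin replicate 1. The mature miRNA counts of the locus were thus almost wholly from the Egfl7 strand at this depth. Antisense transcripts that are not cut into miRNA would not be counted here.

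Libraries held 6643638 to 22886200 counts, with each mature name counted once, and the smallest was tofogliflozin replicate 2 (replicate and mouse numbers are the same). That library stood apart from the others. On the first principal component of log2 CPM, which held 52.0% of the variance, it was at 13.8, while the other 5 lay between -6.17 and 0.141. The differences of the 4 arms, of their ratios and of the listed miRNAs named below are therefore also given without it. Levels are in CPM scaled by TMM, a normalization that sets the bulk of miRNAs to be equal between libraries. Mature miRNAs are read whole, so their levels need no correction for length.

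miR-126a-3p was by far the most abundant of the 4. It took 1.91% ± 0.263 of the counts (SD, n = 6 libraries) and ranked between 15 and 19 among all mature names in every library. miR-139-5p followed at a mean of 772 ± 103 CPM, miR-126a-5p at 243.1 ± 10.3 CPM and miR-139-3p at 32.6 ± 10.6 CPM (SD, n = 6 each). This order was the same in each of the 6 libraries. miR-126a-3p exceeded miR-139-5p by 16.4 to 29.7 times, miR-139-5p exceeded miR-126a-5p by 2.62 to 4.05 times, and miR-126a-5p exceeded miR-139-3p by 4.50 to 11.2 times. No neighbours in the order overlapped, so each step was larger than the spread between mice. The minor arm of miR-126a was thus below the major arm of miR-139 in every mouse.

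miR-126a-3p had 18527, 15059 and 20679 CPM in tofogliflozin mice 1, 2 and 3, against 21967, 18021 and 20009 CPM in diet-only mice 1, 2 and 3. The groups overlapped, with tofogliflozin mouse 2 lowest and diet-only mouse 1 highest. The mean was 18088 ± 2835 CPM with tofogliflozin and 19999 ± 1973 CPM on the diet alone (SD, n = 3 each). In edgeR's quasi-likelihood test its log2 fold change was -0.14 ± 0.14 (SE), with a 95% interval of -0.48 to 0.19 (adjusted p = 0.877). The lower end of that interval is 0.719-fold, so a fall of that size cannot be set aside with these mice.

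miR-126a-5p, the minor arm, had 255.8, 226.2 and 246.7 CPM in tofogliflozin mice 1, 2 and 3, against 242.5, 237.8 and 249.6 CPM in diet-only mice 1, 2 and 3. All 6 mice lay close together, and the diet-only values fell inside the tofogliflozin range. Its log2 fold change in edgeR was -0.0020 ± 0.12 (SE), with an interval of -0.28 to 0.28 (adjusted p = 0.996), and its sign turned with RLE factors, total counts, DESeq2, limma-voom, other counting of repeated rows and each library left out. miR-126a-5p was among the steadiest miRNAs of the cortex: the SD of its log2 CPM over the 6 libraries was 0.062, against a median of 0.34 over the 460 miRNAs tested, and 1.09% of these had a smaller one. Among the 136 tested miRNAs with a mean of at least 100 CPM, 3.68% had a smaller SD. miR-126a-3p, from the same hairpin, had an SD of 0.19, which 50.7% of those 136 were below.

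miR-139-5p had 806.2, 917.3 and 696.6 CPM in tofogliflozin mice 1, 2 and 3, against 769.0, 621.9 and 821.1 CPM in diet-only mice 1, 2 and 3. The groups overlapped, and here tofogliflozin mouse 2 was the highest of all. The mean was 807 ± 110 CPM with tofogliflozin and 737 ± 103 CPM on the diet alone (SD, n = 3 each), and the log2 fold change in edgeR was 0.13 ± 0.16 (SE), with an interval of -0.23 to 0.49 (adjusted p = 0.877). Its SD over the 6 libraries, 0.20 in log2 CPM, was close to that of miR-126a-3p.

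miR-139-3p, the scarcest arm, had 40.0, 50.3 and 26.7 CPM in tofogliflozin mice 1, 2 and 3, against 28.8, 21.2 and 28.6 CPM in diet-only mice 1, 2 and 3. Tofogliflozin mice 1 and 2 were above every diet-only mouse, while tofogliflozin mouse 3 lay within the diet-only range. The mean was 39.0 ± 11.8 CPM with tofogliflozin and 26.2 ± 4.32 CPM on the diet alone (SD, n = 3 each). Its log2 fold change in edgeR was 0.57 ± 0.26 (SE), with an interval of -0.03 to 1.17 (unadjusted p = 0.0605, adjusted p = 0.854, exact permutation p = 0.3), the farthest from 0 of the 4 arms. It was counted from 290 to 654 reads per library and varied most, with an SD of 0.44 in log2 CPM.

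**Figure D1:**
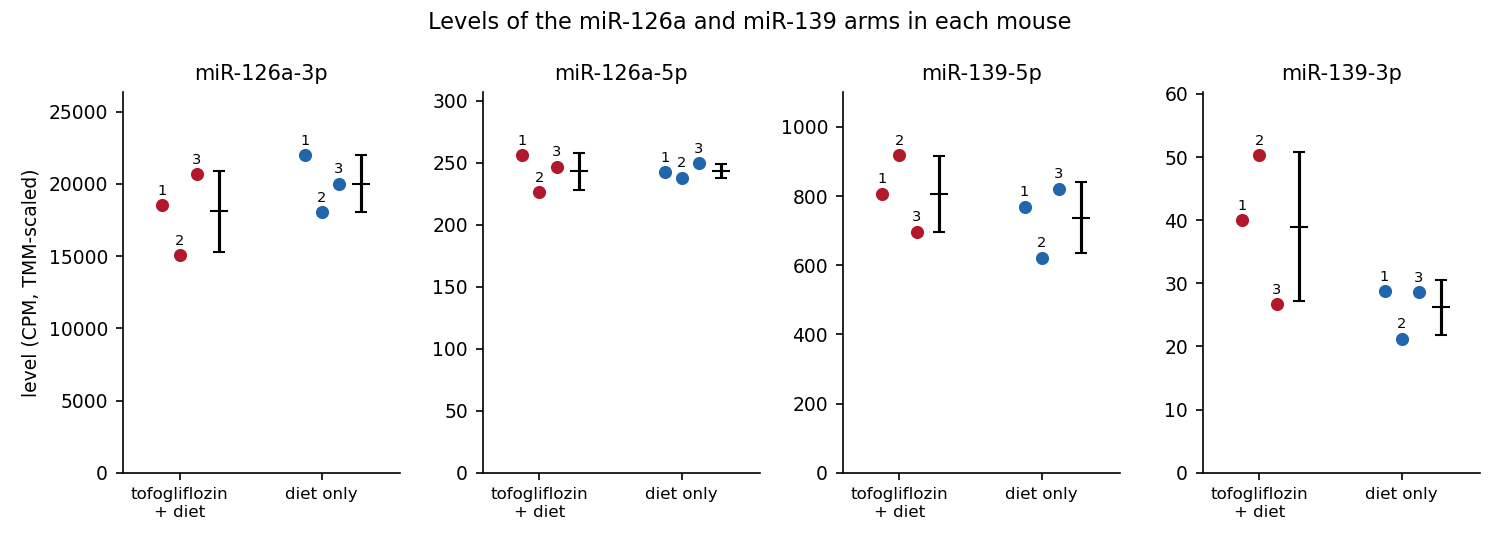
Level of each arm (vertical axes, CPM scaled by TMM, each starting at 0) in tofogliflozin mice (red, left) and diet-only mice (blue, right), with mouse numbers above the points and the mean ± SD of the 3 mice as a bar. miR-126a-5p lies between 226.2 and 255.8 CPM in all 6 mice, while miR-139-3p spreads from 21.2 to 50.3 CPM.

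None of the 4 arms passed an adjusted p of 0.05, and none had groups that did not overlap. Over the whole table edgeR called 0 of 460 miRNAs (0%) at that threshold, with 23 (5%) at an unadjusted p under 0.05. Leaving out a library moved that last count, to 75 when it was tofogliflozin replicate 3, 13 when it was tofogliflozin replicate 1 and 11 when it was diet-only replicate 2. The groups did not overlap for 55 (12%), of which 23 (5%) were higher and 32 (6.96%) lower with tofogliflozin. DESeq2 called 2 (0.435%), limma-voom 0 and edgeR without a filter on low counts 10 of 1026 (0.975%), and none of the 4 arms was among those called. In the exact permutation test of log2 CPM, 2-sided, p was 0.5 for miR-126a-3p and miR-139-5p, 1 for miR-126a-5p and 0.3 for miR-139-3p. With 3 mice against 3 the smallest p of that test is 0.1, so it cannot reach the threshold. The median log2 fold change was 0.06 over the 4 arms and -0.01 over all miRNAs tested.

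**Figure D2:**
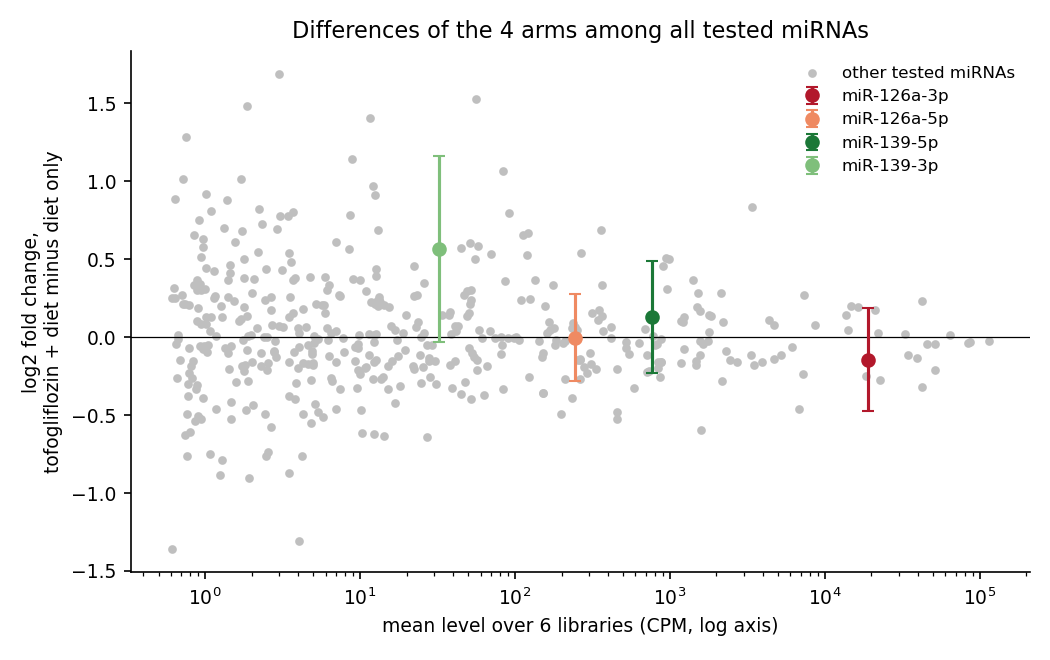
Log2 fold change of tofogliflozin over diet only (vertical axis) against the mean level in CPM (horizontal log axis) for the 460 tested miRNAs, with the 4 arms in colour and their 95% intervals as bars. All 4 intervals include 0, and miR-139-3p, at 0.57, is the farthest from it.

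In tofogliflozin replicate 2 both miR-126a arms were at their lowest of the 6 libraries and both miR-139 arms at their highest. Being at an extreme there was not particular to the 4 arms. Of 20 tested miRNAs of another endothelial list, described below, 9 were at their highest there, 7 at their lowest and 4 at neither. The share over all 460 tested miRNAs was not counted. The differences were nearer to 0 for 3 of the arms without tofogliflozin replicate 2. Without that library the log2 fold change in edgeR was -0.03 for miR-126a-3p, 0.05 for miR-126a-5p, 0.03 for miR-139-5p and 0.35 for miR-139-3p. Without tofogliflozin replicate 3 the values were farther from 0, at -0.23 for miR-126a-3p, 0.25 for miR-139-5p and 0.81 for miR-139-3p, the last with an adjusted p of 0.204 by edgeR. miR-126a-3p also went to -0.06 without diet-only replicate 1, and miR-139-5p to 0.06 without diet-only replicate 2 and 0.23 without diet-only replicate 3. miR-126a-3p stayed below 0 and both miR-139 arms above 0 in every one of these 6 fits.

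**Figure D3:**
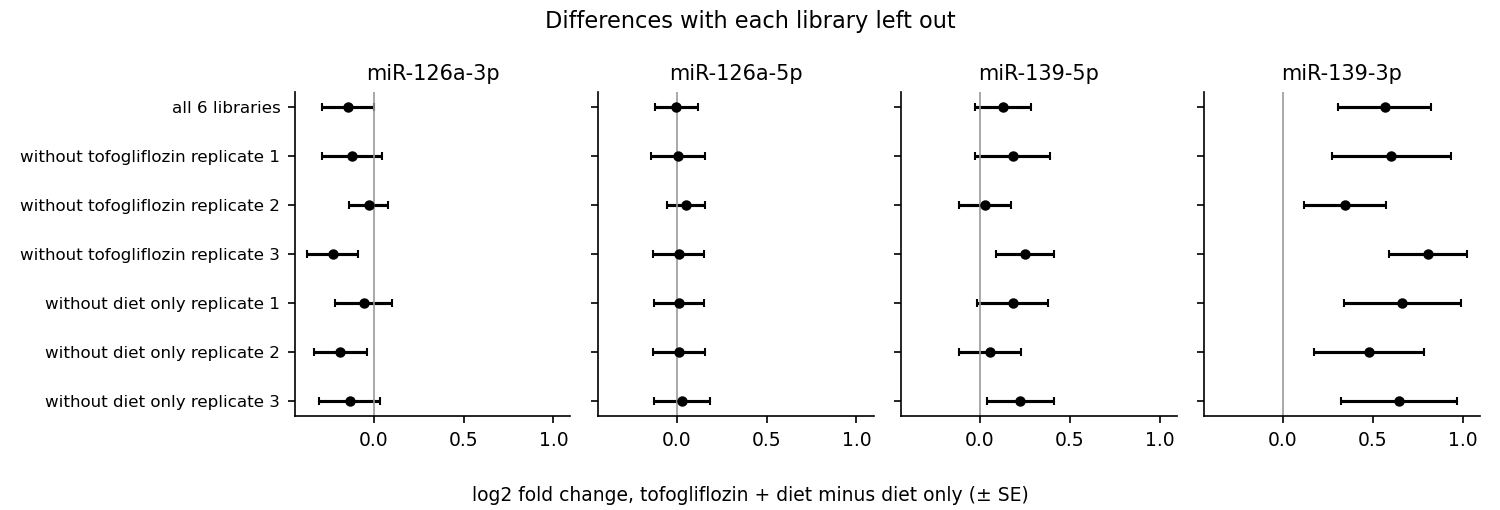
Log2 fold change of tofogliflozin over diet only (horizontal axes, points with ± SE) for each arm, from all 6 libraries in the top row and with 1 library left out in each row under it. Leaving out tofogliflozin replicate 2 puts miR-139-3p at 0.35, its lowest, and leaving out replicate 3 of that group puts it at 0.81, its highest.

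The arms of a hairpin were compared next, since their ratio does not depend on library size. The dominant arm was the 3p arm in miR-126a and the 5p arm in miR-139. Over the 6 libraries miR-126a-3p outnumbered miR-126a-5p by 78.2 ± 8.53 times, and miR-139-5p outnumbered miR-139-3p by 24.9 ± 4.60 times (SD, n = 6 each). Of the 74 hairpins whose lower arm averaged 50 counts or more, ranked upward by the log2 ratio of 5p to 3p, miR-126a stood at 14 and miR-139 at 58. Both ratios varied less between mice than most, with an SD over the 6 libraries of 0.16 for miR-126a and 0.28 for miR-139, against a median of 0.35 over the 74.

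The 5p arm held 1.36%, 1.48% and 1.18% of the miR-126a reads in tofogliflozin mice 1, 2 and 3, against 1.09%, 1.30% and 1.23% in diet-only mice 1, 2 and 3. The groups overlapped, with the highest share in tofogliflozin mouse 2 (95% Clopper-Pearson interval 1.41% to 1.56%) and the lowest in diet-only mouse 1 (1.06% to 1.12%). These intervals cover counting error only. The log2 ratio of 5p to 3p differed by 0.15 ± 0.24 (SE; interval -0.39 to 0.69) in limma over all 74 hairpins (adjusted p = 0.949), and by 0.07 without tofogliflozin replicate 2.

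For miR-139 the shares of the minor arm did not overlap. The 3p arm held 4.73%, 5.19% and 3.69% of the miR-139 reads in tofogliflozin mice 1, 2 and 3, against 3.61%, 3.30% and 3.36% in diet-only mice 1, 2 and 3. Tofogliflozin mice 1 and 2 were well above the rest, while tofogliflozin mouse 3 (interval 3.37% to 4.02%) could not be told from diet-only mouse 1 (3.34% to 3.89%) within counting error. The mean share was 4.54% ± 0.773 with tofogliflozin and 3.42% ± 0.164 on the diet alone (SD, n = 3 each). In limma the log2 ratio of 5p to 3p differed by -0.41 ± 0.25 (SE; interval -0.97 to 0.15), which missed the threshold (unadjusted p = 0.133, adjusted p = 0.918); an exact permutation test gave p = 0.1, the lowest it can give. Of the 74 hairpins, the ratio was lower without overlap in 3 (4.05%), miR-139 among them, and higher without overlap in 1 (1.35%), 4 in all (5.41%). No hairpin (0%) passed the adjusted threshold in limma, and 1 (1.35%) had an unadjusted p under 0.05. The miR-139 difference was -0.30 without tofogliflozin replicate 2 and -0.56 without tofogliflozin replicate 3 (adjusted p = 0.171 by limma), a fit in which 20 of 73 hairpins had an unadjusted p under 0.05.

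**Figure D4:**
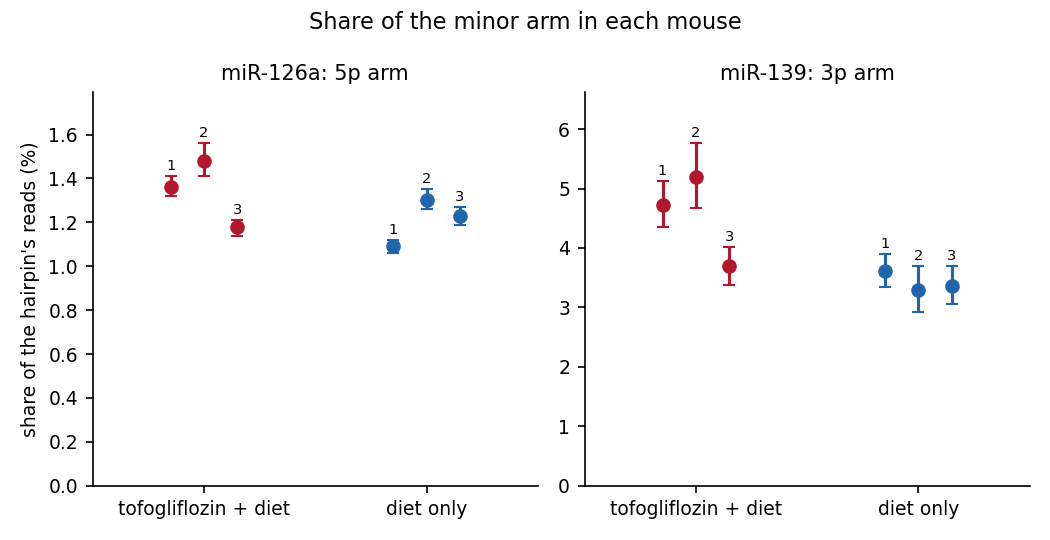
Share of a hairpin's reads that came from its minor arm (vertical axes, %, starting at 0) in tofogliflozin mice (red, left) and diet-only mice (blue, right), with mouse numbers and 95% Clopper-Pearson intervals. For miR-139 the tofogliflozin mice lie between 3.69% and 5.19% and the diet-only mice between 3.30% and 3.61%; for miR-126a the groups overlap.

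Within a library, the reads of the miR-126a hairpin were set against those of the miR-139 hairpin, both arms summed. miR-126a reads outnumbered miR-139 reads by 22.2, 15.8 and 28.9 times in tofogliflozin mice 1, 2 and 3, against 27.8, 28.4 and 23.8 times in diet-only mice 1, 2 and 3. The groups overlapped, since tofogliflozin mouse 3 had the highest ratio and tofogliflozin mouse 2 the lowest. The mean log2 ratio was 4.44 ± 0.44 with tofogliflozin and 4.73 ± 0.14 on the diet alone (SD, n = 3 each), a difference of -0.30 (exact permutation p = 0.4, 2-sided). It was -0.07 without tofogliflozin replicate 2 and -0.51 without tofogliflozin replicate 3. The ratio of these hairpins thus ranged from 15.8 to 28.9 over the 6 mice, most widely in the tofogliflozin group.

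Likeness to other miRNAs was measured as the root mean square difference of log2 CPM over the 6 libraries, each miRNA centred on its own mean, among tested miRNAs with a mean of at least 100 CPM. It is a description without a test. A small value says only that the centred levels were close in these mice, and a miRNA that hardly varied can also score low. The steady miR-126a-5p, for one, ranked 40 for miR-139-5p (0.20), although in tofogliflozin replicate 2 their centred levels were -0.10 and 0.26. Closest to miR-126a-3p among 135 candidates were miR-194-5p (0.036), miR-101a-3p (0.061) and miR-140-5p (0.073), against a median of 0.23. Its own partner arm miR-126a-5p ranked 23 (0.14) and miR-139-5p ranked 94 (0.30). Closest to miR-139-5p were miR-145a-5p (0.10), miR-140-3p (0.11) and miR-99b-3p (0.12), against a median of 0.26. Without tofogliflozin replicate 2 the same 3 miRNAs were nearest to miR-126a-3p, and miR-139-5p ranked 57 (0.15, median 0.16). The nearest to miR-139-5p were then miR-101b-3p (0.085), miR-101a-3p (0.094) and miR-140-3p (0.098). The position of the 2 major arms relative to each other thus depended on that library.

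A list of 24 other miRNAs described in endothelial cells or blood vessel growth, all found by name, gave 20 with enough counts to test. None passed the adjusted threshold in edgeR, and 3 of the 20 had an unadjusted p under 0.05, against 23 of 460 (5%) over all tested miRNAs. Log2 fold changes were above 0 for 13 (65.0%) and below 0 for 7, against 49.1% above 0 over all tested miRNAs, with a median of 0.06, against -0.01. With tofogliflozin replicate 2 left out the median was 0.01 (12 above 0), with diet-only replicate 1 left out -0.01 (9 above 0), and with diet-only replicate 3 left out 0.24. miR-146a-5p, which limits NF-κB signalling in endothelium and in leukocytes, averaged 1266 ± 85.7 CPM with tofogliflozin and 1913 ± 624 CPM on the diet alone, a log2 fold change of -0.60 ± 0.22 (SE; adjusted p = 0.854 by edgeR) that was -0.57 without tofogliflozin replicate 2. Leaving out diet-only replicate 2 in its place gave -0.27. miR-92a-3p, an inhibitor of vessel growth from the miR-17-92 cluster, averaged 2363 ± 209 CPM with tofogliflozin and 1944 ± 99.0 CPM on the diet alone, a log2 fold change of 0.28 ± 0.11 (adjusted p = 0.854 by edgeR; 0.23 without tofogliflozin replicate 2). miR-181b-5p, which dampens NF-κB signalling in endothelium, averaged 408 ± 28.1 CPM with tofogliflozin and 323 ± 38.6 CPM on the diet alone, a log2 fold change of 0.34 ± 0.14 (adjusted p = 0.854 by edgeR; 0.29 without tofogliflozin replicate 2). miR-27a-3p, of a cluster active in vessel growth, was at -0.46 ± 0.26 (adjusted p = 0.854 by edgeR; -0.20 without tofogliflozin replicate 2). edgeR without the filter on low counts, which called 0.975% of all miRNAs, called 2 of the 23 it could test from the list, miR-146a-5p (adjusted p = 0.028) and miR-222-3p (adjusted p = 0.000217). miR-222-3p, which limits endothelial migration and was named after its values were seen, averaged 4365 ± 3461 CPM with tofogliflozin and 2450 ± 295 CPM on the diet alone (SD, n = 3 each), with overlapping groups. Its log2 fold change was 0.83 ± 0.53 (SE) with the default filter and 0.01 without tofogliflozin replicate 2, and its adjusted p was 0.156 to 0.988 in every fit run other than the one without the filter.

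**Figure D5:**
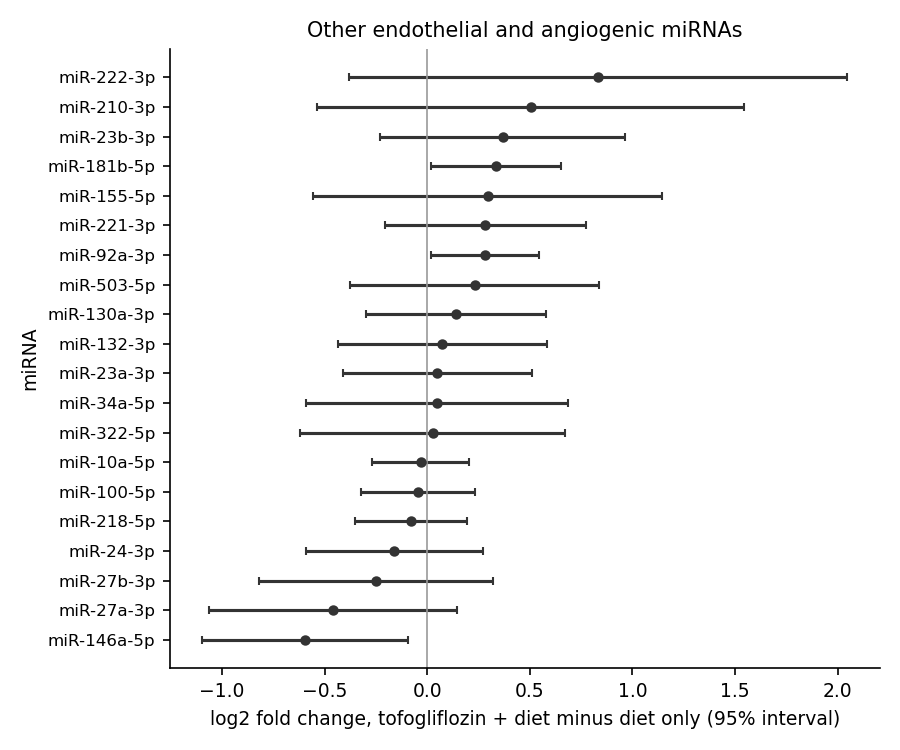
Log2 fold change of tofogliflozin over diet only (horizontal axis, points with 95% intervals) for the 20 tested miRNAs of the list, ordered by value. Intervals of miR-146a-5p, miR-92a-3p and miR-181b-5p do not reach 0; none passed the threshold after adjustment.

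Marker miRNAs of other cells were measured in the same libraries, and their part in the results was not tested. Summed levels of the 4 smooth muscle and pericyte miRNAs were 32050 to 58860 CPM with tofogliflozin and 52890 to 57510 CPM on the diet alone, the lowest in tofogliflozin replicate 2, where miR-126a-3p was lowest too. miR-143-3p made up 98.7% of that sum, and the 4 went opposite ways there: miR-143-3p and miR-145a-3p were at their lowest of the 6 libraries and miR-143-5p and miR-145a-5p at their highest. The 9 tubule miRNAs summed to 94380 to 138000 CPM with tofogliflozin and 108200 to 115700 CPM on the diet alone, the highest in that same library. Of these 9, 5 were at their highest there and 3, miR-194-5p, miR-200a-3p and miR-429-3p, at their lowest. Erythroid miRNAs, 4 of 7 found names tested, summed to 167.5 to 455 CPM with tofogliflozin and 94.9 to 331 CPM on the diet alone, with miR-486 and its opposite-strand partner miR-3107 both counted. Counts of miR-486-5p (967 to 2323 per library) and miR-3107-5p (1015 to 2484) were close. Whether the same reads were counted under both names was not tested, so the 2 may not be separate observations. The hepatocyte miR-122-5p was at 45.8 to 246 CPM with tofogliflozin and 40.7 to 78.6 CPM on the diet alone, and miR-122-3p had 0 counts. The erythroid sum and miR-122-5p were again highest in tofogliflozin replicate 2. Of the 4 erythroid miRNAs, miR-486-5p and miR-3107-5p were at their highest there, while miR-451a and miR-486-3p were at neither extreme. The 3 fibroblast miRNAs summed to 821 to 1272 CPM with tofogliflozin and 986 to 1267 CPM on the diet alone. This sum was also lowest in tofogliflozin replicate 2. There miR-199a-3p, 78.1% of the sum, was at its lowest of the 6 libraries and the other 2 were at neither extreme. The sum of the 20 tested miRNAs of the endothelial list above was lowest there too. miR-10a-5p made up 66.9% of that sum and was at neither extreme there, while 9 of the 20 were at their highest and 7 at their lowest. The 5 leukocyte miRNAs summed to 89.6 to 107 CPM with tofogliflozin and 99.0 to 148 CPM on the diet alone. No member of these lists passed the adjusted threshold in edgeR with its default filter, while DESeq2 called miR-204-5p (adjusted p = 0.0161) and edgeR without the filter called miR-204-5p (adjusted p = 0.0396) and miR-122-5p (adjusted p = 0.000417; 0.975% of all miRNAs were called in that fit). The smallest unadjusted p of each list belonged to miR-204-5p in tubule epithelium (log2 fold change 0.69 ± 0.15), miR-142-5p in leukocytes (-0.63 ± 0.31), miR-143-5p in smooth muscle (0.24 ± 0.18), miR-214-3p in fibroblasts (0.20 ± 0.19), miR-3107-5p in red cells (0.67 ± 0.51) and miR-122-5p in hepatocytes (1.07 ± 0.65). Without tofogliflozin replicate 2 these values were 0.60 for miR-204-5p, -0.54 for miR-142-5p, 0.12 for miR-143-5p, 0.25 for miR-214-3p, 0.23 for miR-3107-5p and, with the sign turned, -0.18 for miR-122-5p. miR-142-5p was at -0.23 without diet-only replicate 2, miR-214-3p at 0.10 without tofogliflozin replicate 3, and miR-3107-5p at 0.36 without diet-only replicate 1 and 1.32 without diet-only replicate 3.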

How the data were processed

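RNA of renal cortex, from a NucleoSpin miRNA kit, was made into NEBNext small RNA libraries, per the labels' protocols. Cutadapt 1.14 and build mm10 were used, per the submitters' processing notes. Which aligner and counter were used is not given in the sources used here. Per library, the authors deposited whole-number read counts, not normalized, in a table of 2033 rows. Of 1900 mature names, 75 had several rows, and the largest count per library was taken. Each of the 4 members had 1 row.

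Differences were fitted over all miRNAs by the 2-sided quasi-likelihood F-test of edgeR 4.0.16 (R 4.3.3; TMM, filterByExpr with a smallest count of 10 and total of 15, Benjamini-Hochberg). The filter left 460 and removed at most 0.00905% of a library's counts. SE is the absolute log2 fold change over the square root of F. Log2 CPM used a prior count of 2. Arm ratios, log2 of 5p over 3p with a pseudocount of 1, were fitted with limma 3.58.1, and DESeq2 1.42.0 was an alternative. Clopper-Pearson intervals came from SciPy 1.17.1. The tests were tested on simulated data.

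The members and lists were chosen with earlier results of these data known. Named miRNAs were the members, their nearest in level, those with the members' seeds, and per list those past the threshold plus the smallest p (4 in the endothelial list, 1 in others). The name miR-142a of a list was matched to miR-142. Adapter ligation can favour some sequences and so affect levels compared between arms; this was not tested. The series' design text gives 3 mice a group; the labels do not say whether libraries were made together.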

Additional observations from a re-analysis of the deposited data

How the results depend on the processing

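No alternative brought a member or an arm ratio past the threshold; the exact tests of the hairpin ratio cannot go below 0.1 and so could not pass it. miR-126a-3p stayed below 0 and both miR-139 arms above 0 under all 16 alternatives run. miR-126a-5p changed sign, to 0.0098 with RLE factors, 0.035 with total counts, 0.010 with DESeq2, 0.0010 with limma-voom, 0.012 with repeated rows summed, 0.033 with identical rows counted once and differing rows summed, and 0.0050 to 0.048 with a library left out; the cause was not tested. The count of called miRNAs was 10 with no low-count filter (of 1026 tested), 2 with DESeq2 and 0 otherwise. Hairpins called stayed at 0.

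Deviations from the group means were not shared between mice of one number (r = 0.0027, -0.14 and -0.17 over the tested miRNAs), and 0 of 6 libraries correlated best with their own number. With a replicate block in the fit, 0 miRNAs were called, 10 had an unadjusted p under 0.05, and the members were at -0.15 (miR-126a-3p), -0.0037 (miR-126a-5p), 0.13 (miR-139-5p) and 0.54 (miR-139-3p). The paired difference of the log2 hairpin ratio was -0.30 (exact sign-flip p = 0.5; the smallest for 3 pairs is 0.25). With a library left out, ranges were -0.23 to -0.03 for miR-126a-3p, 0.03 to 0.25 for miR-139-5p, 0.35 to 0.81 for miR-139-3p, 0.07 to 0.24 for the miR-126a arm ratio, -0.56 to -0.30 for that of miR-139 and -0.51 to -0.07 for the hairpin ratio. Likeness without tofogliflozin replicate 2 was chosen after seeing the data. miR-139-3p had the fewest reads of the 4 arms, down to 290 in diet-only replicate 2.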
